A study of Mus musculus with 24 samples.

Results

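The genes described here make cholesterol, sense it, take it up, store it and pass it out of the cell. The 30 members were named by gene symbol, and all 30 were found among the 35275 genes of the deposited table and had reads in all 12 fat pads. They fall into 5 roles: 8 act in the mevalonate and isoprenoid steps, 11 in the steps from squalene to cholesterol, 4 in sterol sensing, 4 in uptake and movement within the cell and 3 in storage and export. RNA was sequenced from the gonadal and the inguinal white fat of mice with a conditional adipose knockout of FoxO1, a forkhead transcription factor that insulin signalling inhibits, and of control mice carrying only the floxed FoxO1 gene. The stated aim was to find genes and pathways that FoxO1 regulates. Each of the 4 groups holds 6 libraries, and the names in the table tie them to 3 mice per genotype, each with 2 libraries from each pad. The knockout mice are M5, M9 and M12, and the control mice are M6, M7 and M10. The mouse was the replicate (n = 3), and the FPKM (reads scaled by gene length and library size) of the 2 libraries of a pad was averaged. No source used here gives the promoter that drove the recombinase, or the strain and age of the mice.

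Cholesterol is built from acetyl units through mevalonate, isoprenoids and squalene to lanosterol, which is then trimmed to cholesterol. When sterols run low in the membrane of the endoplasmic reticulum, the escort protein Scap releases the transcription factor encoded by Srebf2 from its Insig anchors, and the genes of the synthesis steps are switched on together. Adipocytes make little cholesterol but store much of it around their lipid droplet, whereas macrophages of fat tissue take up, esterify and export it.

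Libraries held 14953657 to 25438811 reads assigned to genes, and the lowest count of any member in a pad was 182 reads over both libraries, for Soat1 in 1 inguinal pad. Foxo1 itself was measured at 4.07, 4.46 and 4.01 FPKM in gonadal fat of knockout mice and 13.6, 7.87 and 9.53 in controls, and at 4.12, 2.49 and 5.69 against 19.7, 13.02 and 14.5 in inguinal fat. The groups did not overlap in either depot (log2 difference -1.18 ± 0.19 SE and -1.86 ± 0.29), although limma's adjusted p was 0.407 and 0.129. Some pads held transcripts of other tissue. The summed FPKM of 8 epididymis markers was 5931 in gonadal M12, 2419 in M10 and 443 in M6, against at most 1.117 in the other gonadal pads and 0.281 in inguinal pads, and the sum of 6 B cell markers was 3.86 and 3.31 in inguinal M9 and M7 against 172 to 282 in the other 4 inguinal pads.

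In inguinal fat, several synthesis genes had higher levels in knockout than in control mice, while the receptor gene Lrp1 and the exporter gene Abca1 had lower levels. Of the 19 synthesis members, 13 had a positive difference, with a median of 0.23 on the log2(FPKM + 0.5) scale, where the median of all 13621 genes tested was -0.10 and 29.4% of them were above 0. The 7 members of uptake, movement, storage and export had a median of -0.31, with 1 of 7 above 0. No member passed limma's test at an adjusted p of 0.05 in this comparison, which called 3 genes in all (0.022%). At an unadjusted p of 0.05, 7 members were higher and 2 lower, where 3.29% of all genes were higher and 11.6% lower. The knockout and control pads did not overlap for 8 members that were higher and 4 that were lower, against 5.28% and 17.3% of all genes.

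The mevalonate and isoprenoid steps held 3 of these 7 members. Pmvk (phosphomevalonate kinase, chr3:89459118-89469013, plus strand) stood at 101, 111 and 108 FPKM in knockout mice and 49.6, 82.3 and 58.5 in controls. All 3 knockout pads lay above the highest control pad, and the mean was 1.68 times that of controls (log2 difference 0.77 ± 0.19 SE, limma p 0.00568, adjusted p 0.173). Fdps (farnesyl diphosphate synthase, chr3:89093592-89101967, minus strand), which builds the isoprenoid that feeds both squalene and protein prenylation, stood at 65.1, 77.7 and 78.8 FPKM in knockout mice and 46.1, 49.97 and 42.0 in controls. Its lowest knockout pad was well above its highest control pad, and the difference was 0.68 ± 0.11 (limma p 0.00071, adjusted p 0.129), a 1.61-fold higher mean. Acat2, an acetoacetyl-CoA thiolase at the head of the pathway, stood at 75.7, 76.2 and 71.8 FPKM in knockout mice and 36.0, 67.5 and 51.5 in controls. Here the control mice were the more scattered, and the difference was 0.57 ± 0.22 (limma p 0.0399, adjusted p 0.316). Of the other 5 members of these steps, Idi1 also had separate groups (0.23 ± 0.10), while Hmgcs1, the synthase at the entry to mevalonate, differed by 0.00 ± 0.16. Mvd, Mvk and Ggps1 differed by 0.28, -0.04 and -0.04, each with overlapping groups.

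Among the sterol steps, the 2 members with the largest differences were Lss and Nsdhl. Lss (lanosterol synthase, which closes the sterol ring, chr10:76531588-76557138, plus strand) stood at 9.45, 11.4 and 11.1 FPKM in knockout mice and 5.07, 6.91 and 5.62 in controls. Every knockout pad exceeded every control pad, with a mean 1.81 times as high (log2 difference 0.81 ± 0.14, limma p 0.00098, adjusted p 0.133). Nsdhl (a sterol dehydrogenase that helps to remove methyl groups from lanosterol, chrX:72918557-72958514, plus strand) stood at 39.7, 46.1 and 47.4 FPKM in knockout mice and 23.4, 31.2 and 25.2 in controls. Its groups were separate as well, at 1.67-fold (log2 difference 0.74 ± 0.13, limma p 0.00125, adjusted p 0.141). Tm7sf2, a sterol C14 reductase, read 16.4, 15.5 and 16.8 FPKM in knockout mice and 10.1, 15.5 and 11.1 in controls, and Dhcr7, which reduces 7-dehydrocholesterol to cholesterol, read 12.97, 15.4 and 15.3 FPKM in knockout mice and 11.4, 12.8 and 11.5 in controls. In both genes the lowest knockout pad was just above the highest control pad, and the differences were 0.42 ± 0.16 and 0.28 ± 0.10 (limma p 0.0400 and 0.0305, adjusted p 0.316 and 0.283). Tm7sf2 overlaps Vps51 over 532 bases on the same strand, so reads there could have been split between the genes. The remaining 7 sterol-step members ranged from -0.38 ± 0.20 for Msmo1, an oxidase that acts beside Nsdhl on the same methyl groups, to 0.24 ± 0.22 for Sqle (squalene epoxidase), and their groups overlapped. The higher levels were thus spread over early and late steps and were not found in every enzyme of either.

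**Figure D1:**
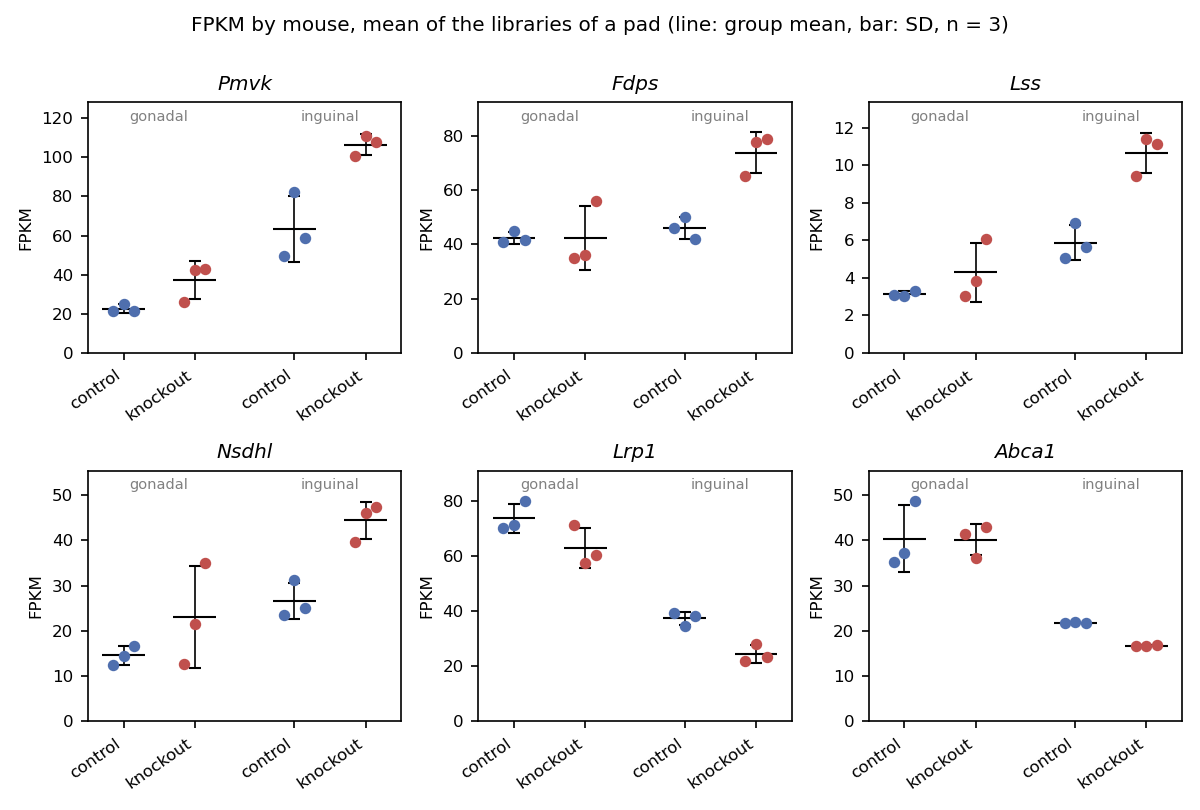
FPKM of 4 synthesis genes, of the receptor gene Lrp1 and of the exporter gene Abca1 in each mouse (points), with the group mean (line) and SD (bar), n = 3 mice per group, blue for control and red for knockout. In inguinal fat the knockout points of Pmvk, Fdps, Lss and Nsdhl all lie above the control points and those of Lrp1 and Abca1 all lie below, whereas in gonadal fat only Pmvk has separate groups.

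The 2 members that were lower at an unadjusted p of 0.05 were Lrp1 and Abca1. Lrp1, a large endocytic receptor for lipoprotein remnants and other ligands (chr10:127538161-127621148, minus strand), stood at 21.99, 28.1 and 23.5 FPKM in knockout mice and 39.5, 34.8 and 38.1 in controls. The groups were separate, with a control mean 1.53 times the knockout mean (log2 difference -0.61 ± 0.11, limma p 0.00143, adjusted p 0.144). Abca1, the transporter that passes cholesterol to lipid-poor apolipoprotein (chr4:53030787-53159895, minus strand), stood at 16.6, 16.6 and 17.0 FPKM in knockout mice and 21.6, 22.04 and 21.8 in controls. The spread within each group was very small, and the difference was -0.37 ± 0.06 (limma p 0.00071, adjusted p 0.129). Soat1, which esterifies cholesterol for storage, and Abcg1, a second exporter, had differences of -0.31 ± 0.42 and -0.20 ± 0.42 with wide, overlapping groups. Both were lowest in M9 among knockouts and in M7 among controls, the same pads that were low in B cell markers, and Srebf2 was too (17.3, 12.1 and 20.7 against 26.0, 12.7 and 17.0 FPKM). The T cell and macrophage marker sums were also lowest in these pads within each genotype. The macrophage sum was 233 in M9 against 453 and 458 in the other knockout pads. It was 483 in M7 against 1062 and 848 in the other control pads. The part of lymphoid tissue or of macrophages in those values was not tested. Npc1 and Npc2, which together release cholesterol from lysosomes, differed by -0.06 ± 0.10 and 0.11 ± 0.08, and Stard4, a cytosolic sterol carrier, by -0.31 ± 0.21. Of the sterol sensors, Scap and Insig2 had separate groups at -0.15 ± 0.09 and -0.08 ± 0.06. Scap read 11.8, 10.1 and 12.04 FPKM in knockout mice and 13.04, 12.3 and 12.2 in controls. Insig1, itself a target of the Srebf2 factor, differed by 0.05 ± 0.31.

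Macrophage transcripts were lower in the same pads as Lrp1 and Abca1. All 9 macrophage markers were lower in inguinal fat of knockout mice, 7 of them at an unadjusted p of 0.05, with a median of -1.06. Their summed FPKM was 233 to 458 in knockout and 483 to 1062 in control pads, and no marker was at 0. All 6 fibroblast markers were lower too (median -0.51), all 7 skeletal muscle markers were lower (sums 58.5 to 337 against 119 to 668), and the 8 adipocyte markers had a median of -0.09. All 5 red blood cell markers were lower at an unadjusted p of 0.05 (median -1.51, sums 1964 to 2164 against 2569 to 8498). The part of these cells in the lower Lrp1 and Abca1 was not tested. Fewer cells of a type and less RNA per cell cannot be told apart in whole tissue.

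**Figure D2:**
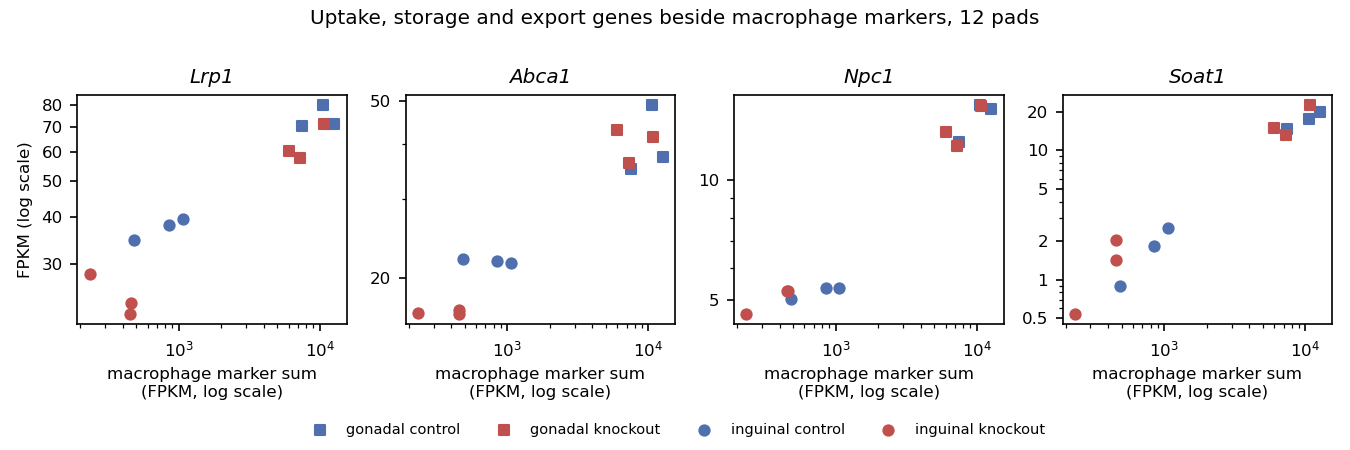
FPKM of Lrp1, Abca1, Npc1 and Soat1 against the summed FPKM of 9 macrophage markers in the 12 pads (both axes log scale), squares for gonadal and circles for inguinal fat, blue for control and red for knockout. Gonadal pads lie at the upper right for all 4 genes, and among the inguinal circles the red points of Lrp1 and Abca1 lie below the blue ones.

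The differences of the 9 members that passed an unadjusted p of 0.05 kept their direction when any 1 mouse was left out. Pmvk ranged from 0.61 to 0.98, Fdps from 0.61 to 0.76, Lss from 0.72 to 0.93, Nsdhl from 0.65 to 0.85, Lrp1 from -0.71 to -0.53 and Abca1 from -0.38 to -0.37. Acat2 was less steady, at 0.34 to 0.78, lowest without control M6 and highest without control M7, and Tm7sf2 and Dhcr7 ranged from 0.30 to 0.59 and 0.24 to 0.36. Of the other 21 members 10 changed sign, among them Srebf2, Soat1, Abcg1 and Insig1. Without the 2 inguinal pads low in B cell markers, which leaves 2 mice per genotype, 6 synthesis members were higher and Lrp1 and Abca1 lower at an unadjusted p of 0.05, where 492 of 13779 genes were higher and 1915 lower. Pmvk then differed by 0.94, Lss by 0.88, Lrp1 by -0.76 and Abca1 by -0.36. Centring each pad on its median moved every inguinal difference up by 0.12, so that the count of members above 0 went from 15 to 20 of 30, and Mvk, Ggps1, Cyp51, Insig2 and Npc1 changed sign. DESeq2 on the reads rebuilt from the FPKM called 2.49% of genes, among them 4 members, Pmvk, Fdps, Lss and Nsdhl, all higher in knockout mice (adjusted p 0.0266, 0.00042, 0.00055 and 0.00216). edgeR's quasi-likelihood test called none of the members and 2 genes in all (0.0126%). By either tool, too, 20 of the 30 members were above 0.

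The sequence just before the start of these genes was examined because several synthesis members were higher in the same pads. RefSeq windows of the 250 bases before the start (GRCm38.p6, the assembly also named mm10) exist in the table used here for 24 of the 30 members. Within them, both strands were searched for CCAAT, for TCACNCCAC, a form of the sterol response element, and for GTAAACA, a forkhead site. CCAAT is the box bound by NF-Y, a partner of the Srebf2 factor at its targets. The motifs share no letters at the matches found. CCAAT was present before 20 of the 24 members, and before 37.5% of all 27018 genes with a window. Counting only the 21 members with a RefSeq start within 200 bases of the start in the deposited table, 16 held it, including 11 of 13 synthesis members. The 5 without it were Abca1, Acat2, Dhcr7, Lrp1 and Scap, of which Dhcr7 held it before another RefSeq start inside the gene. Of the counted synthesis members that were higher with separate inguinal groups, Idi1, Lss and Nsdhl held it, and Acat2 and Dhcr7 did not. The others, Cyp51, Ebp, Ggps1, Hmgcs1, Hsd17b7, Mvd, Mvk and Sc5d, had overlapping inguinal groups and all held it. The box thus did not set the higher members apart. TCACNCCAC was present before 1 member, Hmgcs1, and before 1.23% of all genes, and GTAAACA before 0 members and 3.54% of all genes. A match describes letters in this window and shows no binding. Hmgcs1 (chr13:119690101-119690350, plus strand) is shown because it holds both CCAAT and TCACNCCAC, and Abca1 (chr4:53159896-53160145, minus strand) because it holds none of the motifs, with matches in capitals:
Hmgcs1: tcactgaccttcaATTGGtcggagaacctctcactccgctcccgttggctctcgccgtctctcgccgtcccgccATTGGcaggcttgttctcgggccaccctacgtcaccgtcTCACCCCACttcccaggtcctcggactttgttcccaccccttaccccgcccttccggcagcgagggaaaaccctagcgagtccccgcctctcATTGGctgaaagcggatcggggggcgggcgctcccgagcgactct
Abca1: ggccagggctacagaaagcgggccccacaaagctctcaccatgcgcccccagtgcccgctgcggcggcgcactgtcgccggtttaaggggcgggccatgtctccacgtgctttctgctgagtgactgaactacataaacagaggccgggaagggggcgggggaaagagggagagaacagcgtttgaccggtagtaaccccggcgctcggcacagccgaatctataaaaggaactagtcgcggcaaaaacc
The Hmgcs1 window has 3 CCAAT boxes, all on the opposite strand (ATTGG as printed), and its TCACCCCAC lies 129 to 137 bases before the start. For the higher members Lss (chr10:76531531-76531559), Nsdhl (chrX:72918400-72918428 and chrX:72918489-72918517) and Tm7sf2 (chr19:6067881-6067909, minus strand), the 29 bases around each CCAAT box are shown, since the rest of their windows touches annotated exons:
Lss: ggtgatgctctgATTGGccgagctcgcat
Nsdhl, distal: agcccgcttcccATTGGtttgggaacgaa
Nsdhl, proximal: aagactagcctcATTGGgcaaaatcatgc
Tm7sf2: ctcccagcgctgATTGGctactgtgctgg
The box begins 62 bases before the start of Lss, 109 and 20 before that of Nsdhl and 47 before that of Tm7sf2, whose RefSeq start lies 523 bases inside the gene of the deposited table. Each of these boxes stands on the opposite strand.

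In gonadal fat, of the 30 members 15 were higher and 15 lower in knockout mice, with a median of -0.0018 against -0.02 for all 14851 genes tested, of which 44.2% were above 0. limma called 0 genes at an adjusted p of 0.05 (0.0%), and at an unadjusted p of 0.05 it gave 1291 genes (8.69%), with 4.4% higher and 4.3% lower. Among the members it gave Pmvk and Hmgcs1 as higher and Stard4 as lower, and these were also the only 3 members whose groups were separate, against 6.79% higher and 7.54% lower among all genes. DESeq2 called 279 genes (1.09%) and none of the members, and edgeR called 0 genes (0.0%).

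Pmvk stood at 25.9, 42.6 and 43.1 FPKM in knockout mice and 21.3, 25.1 and 21.2 in controls. The knockout pad M5 lay just above the highest control, and the mean was 1.65 times as high (log2 difference 0.68 ± 0.21, limma p 0.0190, adjusted p 0.488). Hmgcs1 stood at 48.8, 70.9 and 65.2 FPKM in knockout mice and 43.2, 46.6 and 32.2 in controls, a 1.52-fold higher mean (log2 difference 0.59 ± 0.20, limma p 0.0230, adjusted p 0.506). Stard4 stood at 5.65, 5.34 and 5.54 FPKM in knockout mice and 6.06, 6.99 and 6.25 in controls (log2 difference -0.20 ± 0.08, limma p 0.0486, adjusted p 0.569). In all 3 the groups were separate, each by a small gap. The largest difference of the sterol steps was that of Nsdhl, which read 12.7, 21.5 and 35.1 FPKM in knockout mice and 12.4, 14.6 and 16.7 in controls, with overlapping groups and a difference of 0.54 ± 0.36. Its high value came from M12, the pad richest in epididymis markers, in which Pmvk, Lss, Fdps, Acat2, Fdft1, Tm7sf2 and Scap were also the highest of the gonadal pads. Without M12 the Nsdhl difference was 0.19. Insig1 (36.2, 69.4 and 61.1 FPKM in knockout mice and 54.9, 58.1 and 31.4 in controls), Lrp1 (71.1, 57.5 and 60.3 FPKM in knockout mice and 70.2, 71.2 and 79.8 in controls) and Abcg1 (36.9, 27.1 and 36.9 FPKM in knockout mice and 27.4, 27.1 and 31.0 in controls) had the largest differences of their roles, at 0.20 ± 0.33, -0.23 ± 0.11 and 0.22 ± 0.14, all with overlapping groups. Insig1 changed sign, to -0.08, without control M10, whose level was the lowest of the 6.

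The gonadal values were also read beside the transcripts of other tissue and cell types in the pads. Leaving out M6, M10 and M12, which held epididymis markers, leaves 2 knockout mice and 1 control, whose spread is then assumed from the others. Pmvk differed by 0.40 and Hmgcs1 by 0.33 there. Of the 30 members 12 were higher and 18 lower, where 7001 of all 14111 genes were higher and 7110 lower. Fewer pads and less of the other tissue cannot be told apart in that fit. Adipocyte markers were higher in gonadal fat of knockout mice (7 of 8, median 0.53, sums 12011 to 17357 against 10634 to 13264). At an unadjusted p of 0.05, 5 adipocyte markers were higher and 1 lower, where 4.4% of all genes were higher and 4.3% lower. All 9 macrophage markers were lower (median -0.37, sums 6032 to 10741 against 7463 to 12642). All 5 red blood cell markers were lower, 4 of them at an unadjusted p of 0.05 (median -1.48, sums 1357 to 3470.0 against 3385 to 10840.1). All 6 fibroblast and all 6 T cell markers were lower too, 2 of each at that level (medians -0.39 and -0.52). Their part in the values of Pmvk, Hmgcs1 and Lrp1 was not tested.

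**Figure D3:**
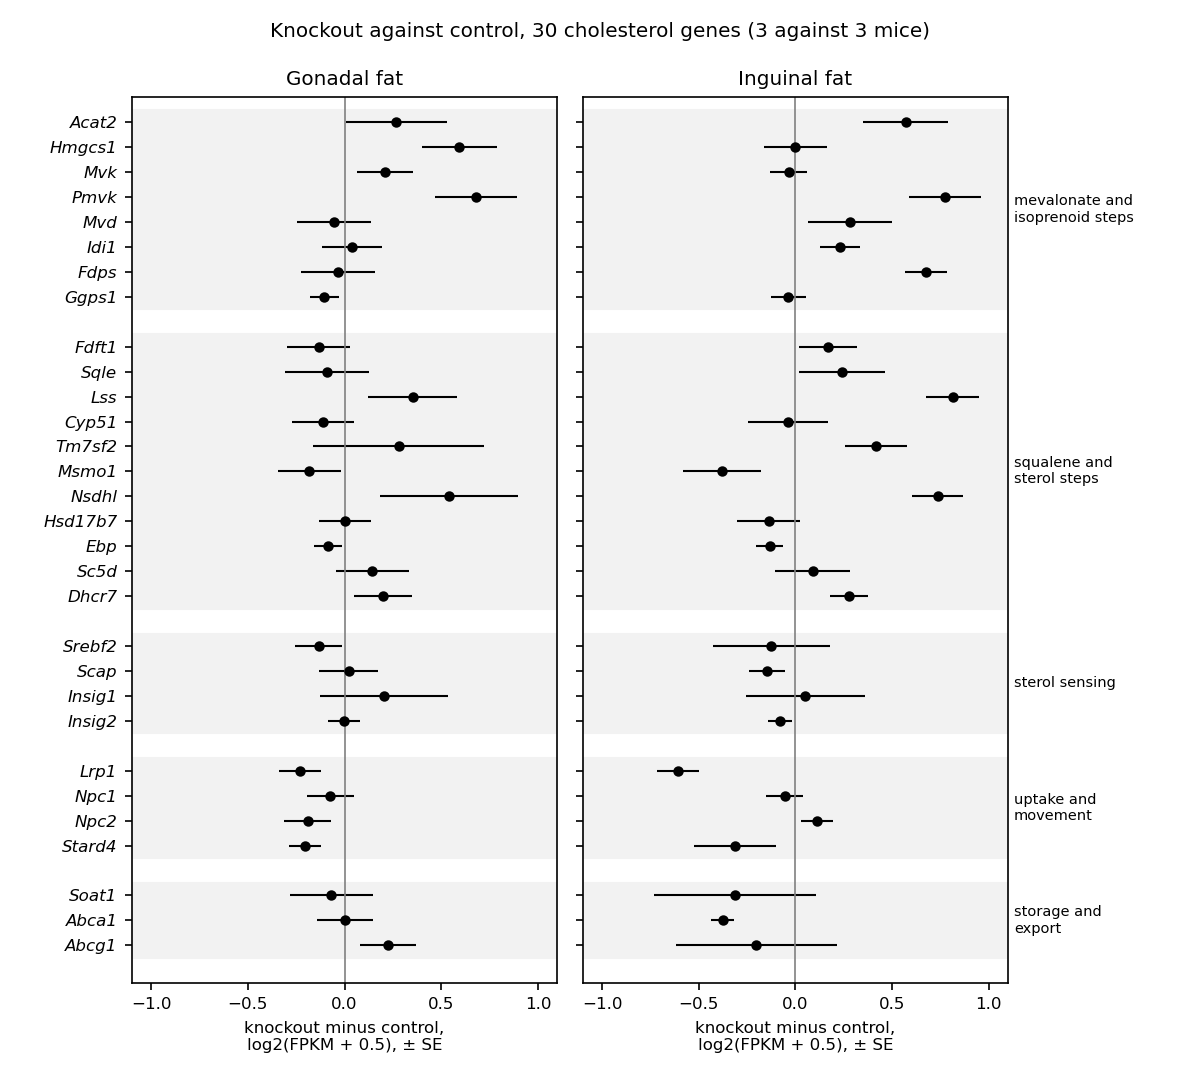
Difference between knockout and control mice (log2(FPKM + 0.5), ± SE of the limma fit) for the 30 members, ordered by role, in gonadal (left) and inguinal fat (right), 3 against 3 mice. Pmvk lies to the right of 0 in both depots, Fdps and Lss lie farther right in inguinal fat, and Lrp1 lies to the left in both.

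Whether the knockout effect differed between the depots was tested as an interaction over all 12 pads. limma called 0 genes and 0 members at an adjusted p of 0.05 (0.0%), and 725 genes at an unadjusted p of 0.05 (4.97%), with 4.21% above and 0.761% below 0. At that level 3 members differed. For Fdps the gonadal minus the inguinal effect was -0.71 ± 0.23 (limma p 0.0120, adjusted p 0.941), its gonadal levels being 34.9, 36.1 and 56.1 FPKM in knockout mice and 40.8, 44.9 and 41.5 in controls. For Lrp1 and Abca1 the gonadal effect was the higher, by 0.38 ± 0.16 and 0.38 ± 0.16 (limma p 0.0377 and 0.0389, adjusted p 0.982 and 0.982). Abca1 read 41.4, 36.2 and 42.9 FPKM in knockout mice and 35.1, 37.3 and 48.8 in controls in gonadal fat, where its groups overlapped fully. The effects on Pmvk and Nsdhl differed between depots by -0.10 ± 0.30 and -0.19 ± 0.41, and that on Hmgcs1 by 0.59 ± 0.27. With the mouse as a replicate block, which uses that both pads came from 1 animal, the unadjusted limma p was 0.00629 for Fdps, 0.0862 for Lrp1 and 0.0482 for Abca1. Without the gonadal pads that held epididymis markers, which leaves 1 gonadal control pad, Fdps stood at -1.01. Of the 30 members 9 were then above 0 and 21 below, where 9509 of 14066 genes were above and 4557 below. Without the inguinal pads low in B cell markers, Fdps stood at -0.73 and Lrp1 at 0.53. Abca1 did not pass an unadjusted p of 0.05 there, a level at which 774 of 14711 genes were above 0 and 127 below.

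The depots themselves differed far more than the genotypes. In control mice, gonadal fat had lower levels of many synthesis genes and higher levels of the genes of uptake, storage and export than inguinal fat. limma called 17 of the 30 members at an adjusted p of 0.05, with 6 higher and 11 lower in gonadal fat, where 41.4% of all 14505 genes were called, 26.9% higher and 14.5% lower. Of the 19 synthesis members, 9 fell and Ebp alone rose. Of the 4 sterol-sensing members Insig1 and Insig2 fell. Of the 4 members of uptake and movement Lrp1 and Npc1 rose, and all 3 members of storage and export rose. The median differences by role were -0.69 for the mevalonate and isoprenoid steps, -0.30 for the sterol steps, -0.12 for sensing, 0.71 for uptake and movement and 1.56 for storage and export, beside 0.18 for all genes. In knockout mice 18 members were called, 8 higher and 10 lower, where 47.8% of all genes were called, 35.1% higher and 12.7% lower. The role medians there were -0.64, -0.16, 0.01, 0.95 and 1.98 in the same order, beside 0.27.

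**Figure D4:**
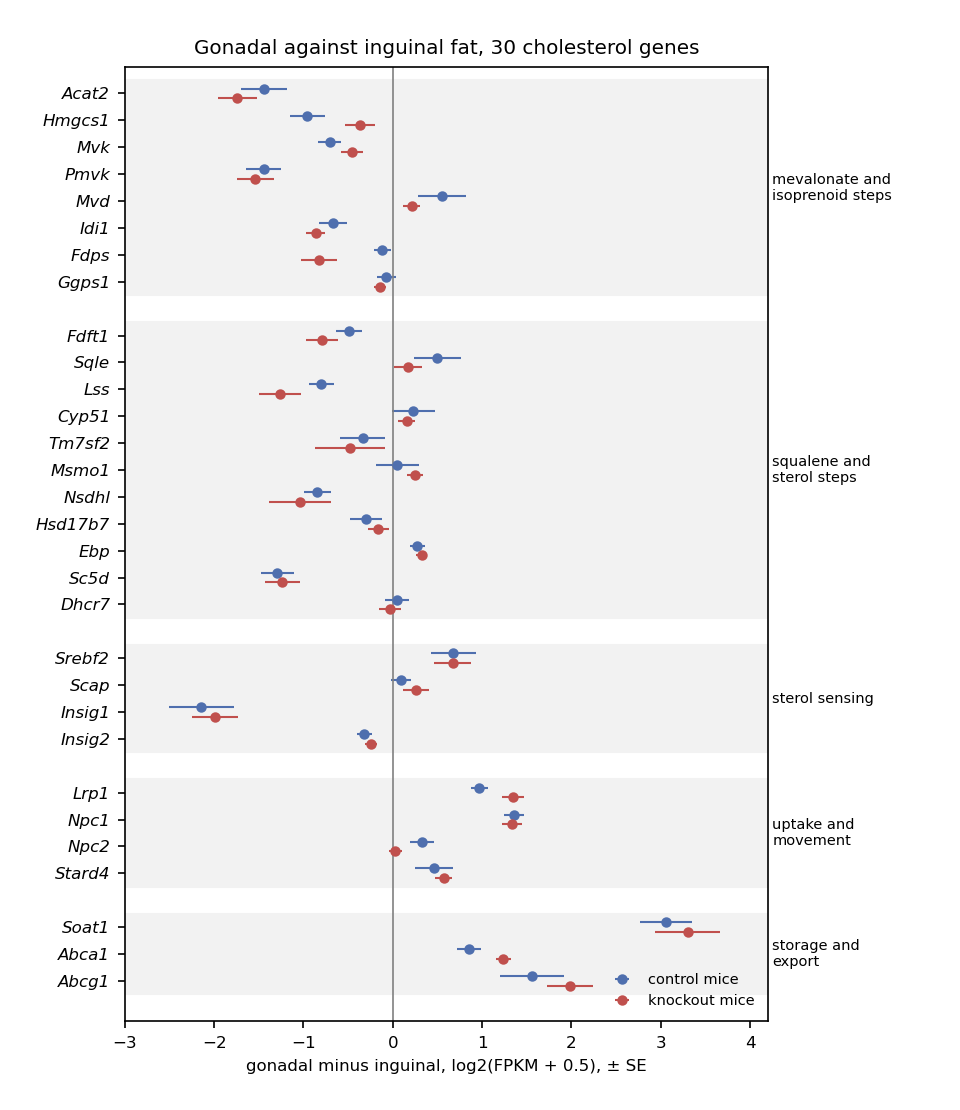
Difference between gonadal and inguinal fat (log2(FPKM + 0.5), ± SE of the limma fit) for the 30 members, ordered by role, in control (blue) and knockout mice (red), 3 mice each. Soat1, Abcg1, Npc1, Lrp1 and Abca1 lie farthest to the right, up to Soat1 at 3.06 and 3.30, and Insig1 lies farthest to the left.

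Soat1 had the largest difference of the 30. It read 14.7, 19.9 and 17.6 FPKM in gonadal and 2.50, 0.896 and 1.82 in inguinal fat of control mice, and 22.3, 13.3 and 14.96 against 1.42, 0.541 and 2.04 in knockout mice. The lowest gonadal pad was thus several times the highest inguinal pad, and the differences were 3.06 ± 0.29 and 3.30 ± 0.37 (limma adjusted p 0.00098 and 0.00119). Abcg1 averaged 28.5 ± 2.15 FPKM in gonadal and 10.2 ± 5.01 in inguinal fat of control mice (SD, n = 3 mice) and rose by 1.56 ± 0.35, and in knockout mice it rose by 1.98 ± 0.26. Npc1 averaged 14.2 ± 1.58 against 5.25 ± 0.185 FPKM, a rise of 1.35 ± 0.11 (limma adjusted p 0.00066), with a spread between mice far below the gap. Lrp1 rose by 0.97 ± 0.10 in control and 1.34 ± 0.13 in knockout mice, and Abca1 by 0.86 ± 0.14 and 1.24 ± 0.08. Srebf2 and Stard4, with differences of 0.68 ± 0.25 and 0.46 ± 0.21 in control mice, passed only in knockout mice (0.67 ± 0.21 and 0.57 ± 0.09), and the interaction above called neither.

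Conversely, Insig1, an anchor of the Srebf2 factor, was 4.56 times as high in inguinal as in gonadal fat of control mice. It read 54.9, 58.1 and 31.4 FPKM in gonadal and 189.7, 327 and 143 in inguinal fat, and fell by 2.14 ± 0.36 in control and 1.99 ± 0.26 in knockout mice (limma adjusted p 0.00546 and 0.00205). Acat2 averaged 18.4 ± 4.14 against 51.7 ± 15.7 FPKM in control mice, with differences of -1.44 ± 0.26 and -1.74 ± 0.22. Pmvk averaged 22.6 ± 2.23 against 63.5 ± 16.9 FPKM, with differences of -1.44 ± 0.19 and -1.54 ± 0.21. Sc5d, Lss, Idi1, Mvk and Fdft1 fell in both genotypes. Hmgcs1 and Nsdhl passed only in control mice (-0.96 ± 0.20 and -0.85 ± 0.15, against -0.37 ± 0.16 and -1.04 ± 0.35 in knockout mice), and Fdps only in knockout mice (-0.82 ± 0.20, against -0.12 ± 0.10 in control mice), and the interaction called none of the 3 at an adjusted p of 0.05. Ggps1, Cyp51, Hsd17b7, Dhcr7, Sqle, Mvd, Msmo1, Tm7sf2, Scap and Npc2 passed in neither genotype. Across the members FPKM, a level per gene length, ran from 1.74 for Soat1 to 219.8 for Insig1 in inguinal and from 2.71 for Hsd17b7 to 264 for Npc2 in gonadal fat of control mice. Fdft1 shares 767 bases on the opposite strand with Ctsb, a lysosomal protease at a mean of 700 FPKM, and Npc1 shares 305 bases with another coding gene. No source used here gives the strand setting of the counting, so reads from these neighbours cannot be told apart there.

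**Figure D5:**
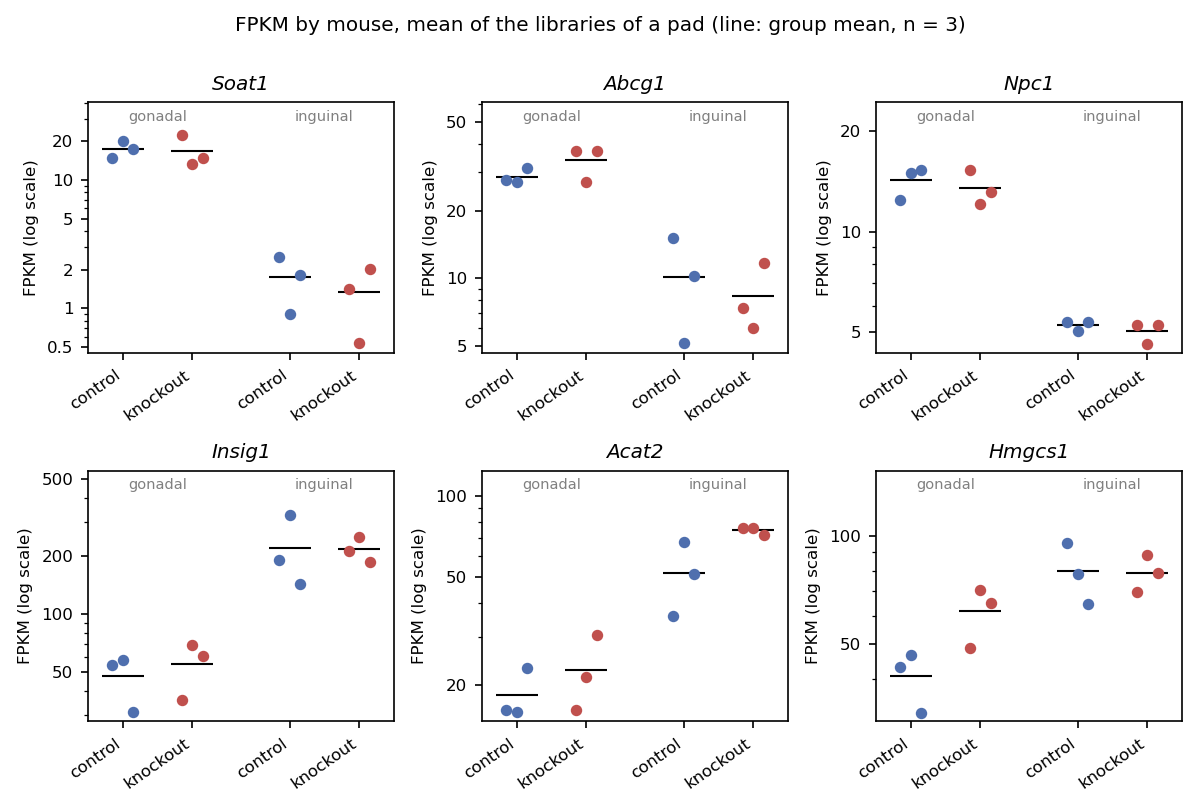
FPKM of 3 storage, export and transport genes (top) and 3 genes of sterol sensing and early synthesis (bottom) in each mouse, log scale, with the group mean as a line, n = 3 mice per group, blue for control and red for knockout. The gonadal points of Soat1, Abcg1 and Npc1 all lie above the inguinal points, and those of Insig1 and Acat2 all lie below.

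Cell types differed between the depots along with these genes. The macrophage marker sum was 7463 to 12642 in gonadal and 483 to 1062 in inguinal fat of control mice, with 8 of 9 markers higher in gonadal fat and a median of 2.69, and the adipocyte sum was 10634 to 13264 against 25428 to 38771, with all 8 markers lower and a median of -1.40. Mesothelium markers, of the lining of the body cavity, were higher by a median of 5.63 (sums 126 to 281 against 3.07 to 4.24). All 7 skeletal muscle markers were called lower in gonadal fat of control mice (median -4.74, sums 25.0 to 53.6 against 119 to 668), and 4 of 6 fibroblast markers were called (median 1.07). Their part in the higher Soat1, Abcg1, Npc1, Lrp1 and Abca1 and the lower synthesis genes was not tested. The counts also rest on the pads used. Without the gonadal pads of control M6 and M10, which leaves 1 gonadal pad against 3, limma called 4 members, Soat1, Npc1, Lrp1 and Abca1, all higher, and 0 lower, among 2358 genes, with 10 lower at an unadjusted p of 0.05, where 2155 of 14038 genes were. Without control M10 in both depots it called 8 members among 1534 genes. In knockout mice it called 12 without M5, among 3047 genes, and 12 without M9. Leaving out the inguinal pads rich in B cell markers leaves 1 inguinal pad against 3 gonadal pads in each genotype. The median difference of the synthesis members was then -0.69 in control and -0.52 in knockout mice. That of the other members was 0.84 and 1.08, beside 0.37 and 0.40 for all genes. Centring each pad on its median moved all differences by -0.30 in control and -0.41 in knockout mice, and the share of higher genes among all calls went from 65.0% to 39.3% and from 73.5% to 35.4%. The members called then were 5 higher and 13 lower in control mice, where 2437 of all genes were called higher and 3768 lower. In knockout mice they were 5 higher and 15 lower, where 2206 of all genes were called higher and 4021 lower. On the rebuilt reads that share was 53.1% by edgeR and 54.3% by DESeq2 in control mice, which called 39.8% and 28.9% of genes and 5 members higher and 11 lower each. In knockout mice the share was 53.9% and 52.3%, with 40.5% and 30.2% of genes called, and with 6 members higher and 14 lower and 5 higher and 15 lower. Ebp, called higher on the deposited scale, had a negative sign under the centring in both genotypes.

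The pathway around these genes was followed with 47 further genes for control, transport, oxysterols and isoprenoid use. In gonadal fat 46 could be tested between genotypes and none was called. At an unadjusted limma p of 0.05, 4 were higher and 1 lower, where 4.4% of all genes were higher and 4.3% lower. The smallest p were those of Srebf1, Vldlr and Erlin1, with differences of 0.56 ± 0.19, 0.62 ± 0.23 and -0.30 ± 0.12. Srebf1, the sister factor that drives fatty acid synthesis, read 68.1, 106 and 105 FPKM in knockout mice and 63.0, 65.5 and 57.3 in controls. Vldlr, a lipoprotein receptor, read 5.92, 9.43 and 10.6 FPKM in knockout mice and 6.05, 4.46 and 5.54 in controls. Erlin1, a membrane protein that restrains the Srebf2 factor, read 11.6, 10.7 and 9.21 FPKM in knockout mice and 11.7, 14.3 and 13.1 in controls. Srebf1 and Erlin1 had separate groups and Vldlr did not. In inguinal fat 43 could be tested and none was called. At that level 1 was higher and 5 lower, where 3.29% of all genes were higher and 11.6% lower. The smallest p were those of Erlin1 (7.98, 7.70 and 7.33 FPKM in knockout mice and 11.4, 10.7 and 10.02 in controls, -0.45 ± 0.08), Cyp27a1, which makes an oxysterol (17.9, 16.2 and 16.3 FPKM in knockout mice and 29.5, 23.4 and 21.5 in controls, -0.54 ± 0.13), and Pltp, a phospholipid transfer protein (35.7, 40.8 and 39.5 FPKM in knockout mice and 78.9, 49.5 and 66.2 in controls, -0.72 ± 0.17). All 3 were lower in every knockout pad than in every control pad. Between depots, 15 of 46 were called higher and 8 lower in gonadal fat of control mice, and 19 and 7 in knockout mice. Of all genes, 26.9% were called higher and 14.5% lower in control mice, and 35.1% and 12.7% in knockout mice.

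The authors' own comparisons list fewer than all genes and hold 6 libraries per group, with 2 libraries from each pad. The authors' deposited table for gonadal fat lists 1808 genes, 990 higher and 818 lower in knockout mice, and 3 members: Pmvk at a log2 fold change of 0.67, Hmgcs1 at 0.57 and Lrp1 at -0.20. The authors' deposited table for inguinal fat lists 2220 genes, 1025 higher and 1195 lower in knockout mice, and 10 members. In that comparison of the authors' deposited table, 8 members are higher, from 0.35 for Idi1 to 0.90 for Lss, and Lrp1 and Abca1 are lower, at -0.46 and -0.26. When each library was counted as a replicate, 6 per group, which treats libraries of 1 pad as independent, limma called 7.58% of genes in gonadal and 16.1% in inguinal fat, with 2 and 9 members. For the interaction that was 1.82% with 1 member, Fdps, and between depots 62.7% in control and 67.0% in knockout mice. DESeq2 called 0.0418% of genes and no member for the interaction, and edgeR called 0.0%.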

How the data were processed

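Per the labels' protocols, total RNA was taken with a Qiagen RNeasy kit and made into libraries by the NEBNext Ultra method. CASAVA, STAR and mm10 are named, without versions, in the notes on processing by the submitters. How reads were counted, and with which strand setting, is stated in none of the sources. The deposited table gives FPKM per gene and library, per the file headers, with no pooling. The authors' deposited comparison tables hold read counts, group means as a scaled signal, log2 fold changes and the authors' p-values, for listed genes only, of which the log2 fold changes were used here, and the read counts to set library totals. Another 24 columns of those tables repeat FPKM and were not used. Columns were mapped to groups by name, and the labels' replicate numbers do not occur in the names. Both pads of a mouse carry its number there, which pairs the depots. Deviations from the group mean over 14577 genes correlated between the pads of 1 mouse at -0.10 to 0.14.

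Whole reads were recovered from the FPKM, gene lengths and library totals: 100.0% of values lay within 0.001 of a whole number. Genes with a mean of at least 0.5 FPKM over the pads of a comparison were tested with limma 3.58.1 (R 4.3.3) on log2(FPKM + 0.5), with a variance trend and Benjamini-Hochberg adjustment over all genes tested. Fold changes of low genes are understated on this scale. An exact permutation test of 3 against 3 mice cannot go below p = 0.1. edgeR 4.0.16 and DESeq2 1.42.0 were run on the rebuilt reads, and the limma step was tested on simulated data. Nothing says that the libraries of a pad came from separate extractions, and they differed over the members by a median of 0.03 to 0.12 on the log2 scale.

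The 30 members, the pathway lists, the marker lists and the rule for named genes (separate groups with an unadjusted p under 0.05, the largest difference of each role, an interaction with such a p, the 3 largest called depot differences each way, and the 3 smallest p among other pathway genes) were chosen with earlier results of these data known. Nr1h3 and the genes of the last paragraph were chosen after its values were seen. The same control pads enter several comparisons. Promoter windows come from RefSeq (GRCm38.p6). Windows for 6 members, and members on chromosome 18, are not printed here.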

Additional observations from a re-analysis of the deposited data

Results flagged for a closer look

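Nr1h3, the liver X receptor alpha that senses oxysterols and is known to switch on Abca1 and Abcg1, had knockout differences of opposite sign in the depots. It read 44.9, 54.3 and 46.8 FPKM in gonadal fat of knockout mice against 40.3, 43.7 and 38.2 in controls, and 53.3, 50.7 and 47.6 against 57.5, 62.0 and 61.0 in inguinal fat. Every knockout pad was above every control pad in gonadal fat and below every control pad in inguinal fat (0.25 ± 0.10 and -0.25 ± 0.07 on the log2 scale). The interaction was 0.50 ± 0.12 (limma p 0.00218), and it did not pass over all genes (adjusted p 0.822).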

How the results depend on the processing

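Differences of the genes named by the rule in each comparison kept their direction under the alternatives run (pseudocount of 0.1 or 1, no filter or a mean of at least 2 FPKM, one library of each pad, each library as a replicate, median-centring, edgeR, DESeq2, leaving out 1 mouse), with 1 exception: Insig1 in gonadal fat was -0.0759 without control M10 (-0.0759 to 0.48 over mice left out) and -0.2098 without the pads with epididymal transcripts, and the cause was not tested. With each library as a replicate, limma called 1125 genes and 2 members in gonadal fat, 2189 and 9 in inguinal fat, 265 and 1 for the interaction, and 9100 genes between depots in control mice, with 11 members higher. DESeq2 called 279 genes in gonadal fat, 586 and 4 members in inguinal fat and 11 genes for the interaction. Leaving out 1 mouse gave 0 to 1 genes in gonadal and 0 to 78 genes and 0 to 1 members (both highest, with Pmvk called, without control M7) in inguinal fat. Between depots it gave 1534 to 5257 genes, 8 to 15 members, 3 to 7 higher and 5 to 9 lower in control mice, lowest without M10, and 3047 to 5911 genes, 5 to 8 members higher (lowest without M5) and 5 to 10 lower (lowest without M9) in knockout mice. The median difference of the members between depots was -0.32 median-centred and -0.21 by DESeq2 in control mice, and -0.50, -0.34 (edgeR) and -0.38 (DESeq2) in knockout mice, where 5 members were higher when centred and by DESeq2.

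Pads were also left out after seeing the marker levels. Inguinal fat without the pads low in B cell transcripts gave 31 genes. Control mice without the gonadal pads holding epididymal transcripts gave 2358 genes between depots, 4 members and 0 lower. Knockout mice without the inguinal pads high in B cell transcripts keep 1 inguinal pad, and that median was -0.11, beside 0.40 for all genes. Depot comparisons within a mouse are paired by design. With the mouse as a replicate block, limma called 5092 genes and 15 members in control and 6365 and 19 in knockout mice and 0 for the interaction, which moved no count by over 1.5 times. No paired analysis was possible for knockout against control because the groups are different mice.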

Other observations

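Other cholesterol genes differed between the depots by more than most members did, and these were picked after their values were seen. Cyp7b1, which hydroxylates oxysterols, read 12.4, 15.9 and 12.4 FPKM in gonadal and 0.276, 0.123 and 0.197 in inguinal fat of control mice, a log2 difference of 4.33 ± 0.16. Of the enzymes that free cholesterol from its esters, 2 were high in the same pads as Soat1, which makes the esters. Lipa, the lysosomal one, read 119.9, 222 and 186 against 25.0, 21.6 and 25.3 FPKM (2.81 ± 0.23). Nceh1 read 13.4, 17.9 and 17.1 against 2.53, 0.897 and 1.96 (2.92 ± 0.30). Lipe, another such enzyme, went the other way: it is one of the 8 adipocyte markers, all lower in gonadal fat of control mice. Nceh1 in inguinal fat was lowest in M7 and M9 (1.62, 0.739 and 2.16 in knockout mice), the pads low in B cell markers, as Soat1 was. These pads also had the lowest macrophage marker sums of their genotype. Vldlr and Srebf1 had lower levels in gonadal fat, by 1.53 ± 0.15 and 0.97 ± 0.21 on the log2 scale. limma called Cyp7b1, Lipa, Nceh1, Vldlr and Srebf1 in control mice (adjusted p from 0.00011 for Cyp7b1 to 0.0124 for Srebf1).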
